A study of Mus musculus with 8 samples.

Results

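Potassium channel subunits were examined as all genes on the array whose symbol starts with Kcn, taken from probe sets that the platform annotation gives a single gene symbol. This rule found 84 genes with 167 probe sets, among 18193 genes with 34945 such probe sets on the array. 43 of the 84 genes, with 64 probe sets, reached a linear value of 50 on at least 4 of the 8 arrays and were tested. Another 35 genes lay under 50 on all arrays, and 6 reached it on 1 to 3 arrays only.

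The samples came from adult mice of both sexes aged 6 to 12 weeks, on a mixed Fvb and c57/bl6j background, carrying a bacterial artificial chromosome transgene of the line Hcrt JD218. In translating ribosome affinity purification such a transgene puts a tag on the ribosomes of chosen cells, here those in which the transgene is active, and the RNA on these ribosomes is pulled down. Thalamus and hypothalamus were dissected together and 5 mice were pooled per sample. 4 immunoprecipitates are labelled as RNA of hypocretin neurons. For each of them the unbound fraction of its preparation, 4 in all, was measured as total tissue RNA. All 8 samples carried the same transgene, so the comparison is between fractions and not between genotypes. Each sample was hybridised to 1 Affymetrix array after amplification from 20 ng of RNA. A fold therefore combines cell type with binding to ribosomes, which cannot be told apart here, nor can fewer cells of a type and less RNA per cell.

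Potassium channels let K+ leave or enter the cell and so set the resting potential, the shape of the action potential and the rate of firing. Each voltage-gated channel is made of 4 pore-forming subunits, whose subfamilies (Kcna, Kcnc, Kcnd, Kcnq, Kcnh) differ in the voltage and speed at which they open. Silent modifiers (Kcnf, Kcng, Kcns, Kcnv) join other subfamilies, and auxiliary subunits (Kcnab, Kcnip, Kcne, Kcnmb) alter gating and delivery to the membrane. Inward rectifiers (Kcnj) hold the resting potential and carry the responses to G proteins and to ATP, and two-pore channels (Kcnk) carry leak currents. Hypocretin neurons, which keep the animal awake, are known to be inhibited through such channels by several transmitters.

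Levels are given on a log2 scale, on which the floor of 50 is 5.64. The fractions had been normalized apart, so each was shifted by 1 constant to equal means of 18 biotinylated hybridisation controls. A gene was called higher or lower in the immunoprecipitate at an adjusted p under 0.05 in limma, fitted over all 17865 tested probe sets, with a change of at least 2-fold. A gene is represented by its tested probe set with the highest mean. Where some arrays of a group lay under 50, the fold is a bound from values raised to 50.

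The label was checked first. Hcrt, the gene of the hypocretin peptides, measured 15.10, 15.39, 15.43 and 15.50 in immunoprecipitates 1 to 4 and 9.77, 10.10, 10.40 and 11.06 in unbound fractions 1 to 4, a difference of 5.02 (32.5-fold, limma adjusted p = 6.46e-07). On a list for hypocretin neurons 7 of 8 tested genes rose, against 4.74% of all tested genes. The other, Slc17a6, differed by -0.69 and was not called. The list was chosen with earlier results of these data known, so its count is no independent check of the label. RNA of other cells was still measured in the pull-downs. The 9 tested oligodendrocyte genes averaged 9.40 to 10.96 in the immunoprecipitates and 12.38 to 12.81 in the unbound fractions, and the 10 astrocyte genes 7.13 to 8.60 and 10.51 to 10.69. Beside the 44.2% of all tested genes that were called lower, every tested member of both lists fell, as did 7 of 7 microglial, 5 of 5 endothelial and mural, 6 of 6 GABAergic and 6 of 8 thalamic neuron genes. On the remaining lists 5 of 5 oligodendrocyte precursor genes, 3 of 4 genes of melanin-concentrating hormone neurons and 5 of 10 pan-neuronal genes fell, the last a share near that of all genes, and 1 pan-neuronal gene rose. Sox9 of astrocytes, C1qa, C1qc and Cx3cr1 of microglia, Cldn5 of endothelial cells, Dlx2 of GABAergic neurons and Lef1 of thalamic neurons lay under 50 on all 4 immunoprecipitate arrays. They passed the filter only through the unbound arrays, so their direction was fixed by the filter.

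The upstream sequences of 3 genes are shown because they stand for the gene that rose, a member of the same subfamily that fell and the glial channel among those that fell most. The windows are the 250 bases before the transcription start from RefSeq on GRCm38.p6, 5′ to 3′ on the strand of the gene, with CG dinucleotides in capitals. They lie at chr6:126535556-126535805 on the minus strand (Kcna5), chr2:107290339-107290588 on the plus strand (Kcna4) and chr1:172340960-172341209 on the plus strand (Kcnj10).
Kcna5: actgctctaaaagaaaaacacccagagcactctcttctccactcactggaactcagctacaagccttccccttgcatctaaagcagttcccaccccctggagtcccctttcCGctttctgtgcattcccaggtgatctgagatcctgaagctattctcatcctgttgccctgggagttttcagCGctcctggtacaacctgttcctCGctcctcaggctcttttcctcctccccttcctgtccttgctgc
Kcna4: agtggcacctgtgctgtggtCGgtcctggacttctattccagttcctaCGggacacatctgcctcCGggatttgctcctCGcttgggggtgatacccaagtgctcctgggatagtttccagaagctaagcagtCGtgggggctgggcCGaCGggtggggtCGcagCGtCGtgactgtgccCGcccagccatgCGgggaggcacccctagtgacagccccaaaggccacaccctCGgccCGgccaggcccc
Kcnj10: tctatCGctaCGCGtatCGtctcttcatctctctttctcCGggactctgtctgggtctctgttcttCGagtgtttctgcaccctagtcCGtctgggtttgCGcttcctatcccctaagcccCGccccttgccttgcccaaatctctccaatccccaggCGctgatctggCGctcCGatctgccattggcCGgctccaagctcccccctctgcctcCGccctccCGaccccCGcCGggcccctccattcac
The Kcna5 window holds 3 CG dinucleotides, the Kcna4 window 14 and the Kcnj10 window 17. Of all 32851 windows in the RefSeq table, 29.0%, 70.6% and 76.5% hold fewer CG dinucleotides than these, in that order. 32 of the 43 tested channel genes matched the table, with 51 windows, and their median of 6 CG dinucleotides equals the median of all windows. Among the genes that fell the number ranged widely, from 0 in the Kcnk1 window to 31 in the Kcnma1 window. TATAAA, searched on both strands, was found in 3 of the 51 windows and in 12.4% of all windows, and TGACG in 6 of the 51 and in 17.8% of all. Neither was found in the 3 windows shown.

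Of the 43 tested channel genes, 27 fell in the immunoprecipitate, 1 rose (Kcna5) and 15 were not called. This is 62.8% lower, against 44.2% of all 10398 tested genes, and 2.33% higher, against 4.74%. The median difference was -1.70 over the channel genes and -0.85 over all tested genes. With each bounded gene at its bound the median of the channel genes was -1.39. For 2 of the 27, Kcnd1 and Kcnv1, the bound is under 2-fold, so that their call of at least 2-fold rests on values below the floor. The other 25 had a measured or bounded fold of at least 2. Of the 27, 5 (Kcnab3, Kcnd1, Kcnj16, Kcnmb2 and Kcnv1) passed the filter only through the unbound arrays. Their direction was thus fixed by the filter, and they are counted in the shares and medians given here. No tested channel gene passed only through the immunoprecipitates. The same filter applied to all tested genes. The groups did not overlap for 32 of the 43 genes (74.4%), against 57.1% of all genes. Each of the 27 genes that fell was lower in all 4 preparations. For 26 of them this follows from the lack of overlap, so it is no further support for the calls. Since most tested genes lay lower in the immunoprecipitate, values were also centred on the median of each array, taken over all probe sets but the controls. At most 40.9% of these reached 50 on any array, so that median lay under the floor. On that scale 20 channel genes were lower (46.5%, against 22.2% of all genes), 5 were higher (11.6%, against 17.5%) and 18 were not called, with a median of -0.89 against -0.03 over all tested genes. The 20 were all among the 27, and the 7 that lost the call were Kcna4, Kcnd3, Kcnf1, Kcnk1, Kcnk3, Kcnn2 and Kcnt1.

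**Figure D1:**
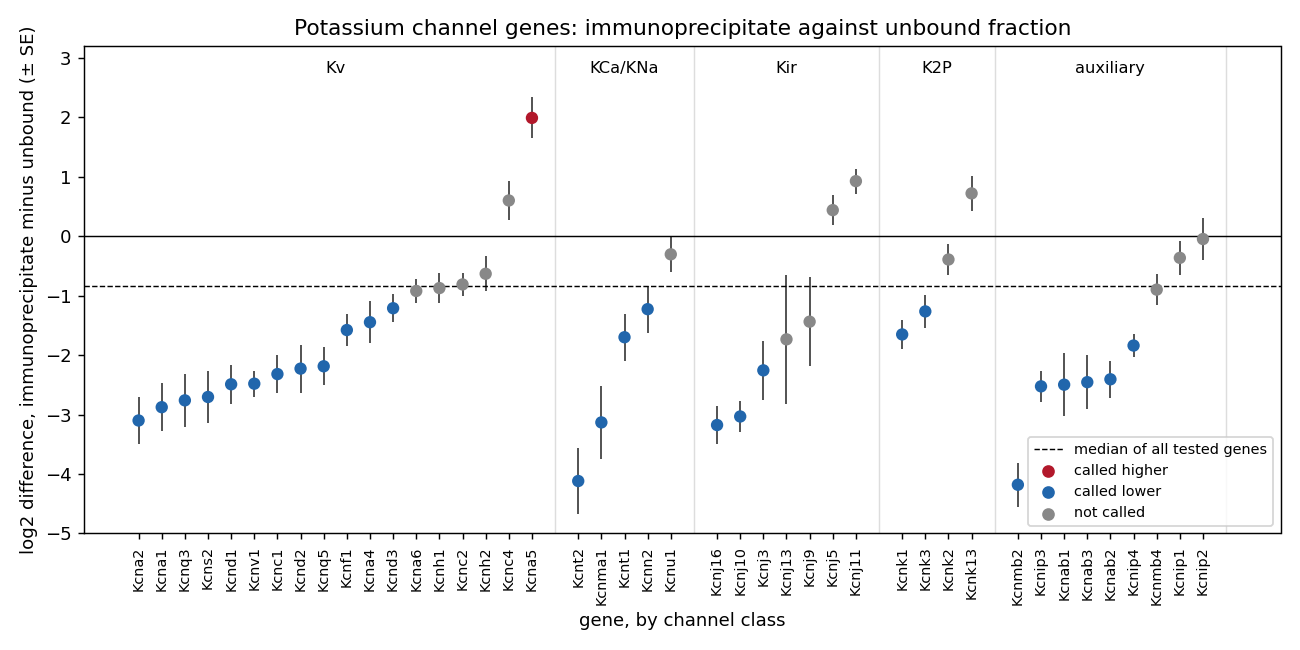
Difference between the fractions for each of the 43 tested channel genes, immunoprecipitate minus unbound on the log2 scale, as points with the standard error as bars, grouped by channel class and coloured by call. The dashed line marks the median of all tested genes at -0.85, and Kcna5 at 1.99 is the one gene called higher.

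**Figure D2:**
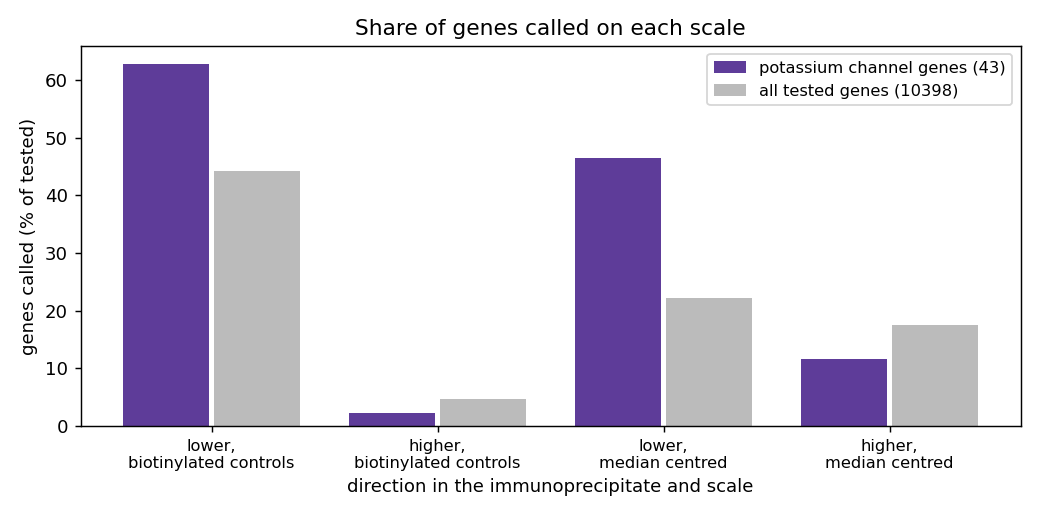
Share of genes called lower or higher in the immunoprecipitate, as % of tested genes, for the 43 channel genes and all 10398 tested genes on 2 scales. The share lower among channel genes was 62.8% on the scale of the biotinylated controls and 46.5% after centring on the median, against 44.2% and 22.2% of all genes.

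Among the voltage-gated pore-forming and modifier subunits, 31 genes of which 18 were tested, 1 rose, 12 fell and 5 were not called, with a median of -1.88. For this and the later classes, the values over all tested genes are 44.2% lower, 4.74% higher and a median of -0.85. The gene that rose was Kcna5, which encodes Kv1.5, a delayed rectifier best known from the heart atrium and vascular muscle. A single probe set of Kcna5 was among those examined, so no other could be set beside its call. Kcna5 measured 11.09, 10.73, 11.32 and 11.85 in immunoprecipitates 1 to 4 and 9.27, 8.59, 9.06 and 10.10 in the matching unbound fractions. All immunoprecipitates lay above all unbound fractions, and preparation 4 was the highest in both. The difference was 1.99 ± 0.34 (SE, n = 4 per group, 3.97-fold, limma adjusted p = 0.000633), between 1.75 and 2.26 in the 4 preparations. It was 2.80 on the median-centred scale and 0.02, with no call, when the fractions were shifted to equal means of 24 poly-A control probe sets instead.

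Kcna1 and Kcna6 neighbour Kcna5 on chromosome 6 in the RefSeq annotation, and neither was called higher. Kcna1 encodes Kv1.1 and Kcna2 encodes Kv1.2, low-threshold subunits placed along axons beside the nodes of myelinated fibres. Kcna1 measured 10.07, 9.35, 9.37 and 7.94 in the immunoprecipitates and 11.94, 12.29, 12.34 and 11.67 in the unbound fractions, and fell by 2.88 ± 0.40 (7.34-fold, limma adjusted p = 0.000173). The groups did not overlap, and immunoprecipitate 4 was the lowest. Kcna2 measured 10.47, 9.45, 9.83 and 8.28 in the immunoprecipitates and 12.71, 12.78, 12.62 and 12.33 in the unbound fractions. Its difference was -3.10 ± 0.39 (8.57-fold, limma adjusted p = 0.000103), again with no overlap. All 3 tested probe sets of Kcna1 and both of Kcna2 fell.

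Kcna6, the gene of Kv1.6, gave calls that depend on the probe set. The brighter one stood at 7.82 to 8.10 in the immunoprecipitates and 8.73 to 8.97 in the unbound fractions, a difference of -0.92 that did not reach 2-fold (limma adjusted p = 0.00265). The dimmer one stood at 5.79 to 6.55 in the unbound fractions and under 50 on every immunoprecipitate array, and was called lower with a bound of at least 1.29-fold. The bound does not show that the probe sets differ in the size of the change. Kcna4, which gives a fast inactivating current, fell by 1.45 (2.73-fold, limma adjusted p = 0.0046), and its groups overlapped. Within the Kcna subfamily 5 of 7 genes were tested, of which Kcna5 rose, Kcna1, Kcna2 and Kcna4 fell, and Kcna6 was not called. Kcna3 and Kcna7 stayed under 50 on all arrays.

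Kcnq3 and Kcnq5 encode subunits of the M-current, which damps repetitive firing and is shut by muscarinic receptors. Kcnq3 measured 9.43, 8.84, 8.86 and 7.05 in the immunoprecipitates and 11.16, 11.64, 11.40 and 11.02 in the unbound fractions. Immunoprecipitate 4 was the lowest and no values overlapped, and Kcnq3 fell by 2.76 ± 0.45 (6.78-fold, limma adjusted p = 0.000423). Kcnq5 fell by 2.19 (4.56-fold, limma adjusted p = 0.000219). Kcnq1, also of this subfamily, stayed under 50 on all arrays.

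The Kcnd genes encode the Kv4 subunits of the A-type current in the cell body and dendrites, and all 3 fell. Kcnd1 measured 3.52, 4.23, 3.52 and 3.47 in the immunoprecipitates and 5.77, 6.00, 7.07 and 5.86 in the unbound fractions. Every immunoprecipitate value lay under the floor and every unbound value above it, so that Kcnd1 was at least 1.46-fold lower (limma adjusted p = 0.000122). Kcnd2 fell by 2.23 (4.68-fold), with the same call from all 3 of its probe sets, and Kcnd3 fell by 1.21 (2.32-fold).

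The Kcnc genes encode the Kv3 subunits that let neurons fire fast. Kcnc1 measured 10.64, 10.07, 9.75 and 9.16 in the immunoprecipitates and 12.15, 12.50, 12.56 and 11.68 in the unbound fractions. No values overlapped, and the difference was -2.32 (4.99-fold, limma adjusted p = 0.000172). A second probe set of Kcnc1 fell by 2.06 and the other differed by -0.74 and was not called. Kcnc2 stood at 11.29 to 11.76 in the immunoprecipitates, a difference of -0.81 that did not reach 2-fold. Kcnc4 differed by 0.60 (limma adjusted p = 0.137), with overlapping groups.

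Silent modifiers form no channel of their own. Kcns2 measured 8.43, 7.47, 7.38 and 6.06 in the immunoprecipitates and 10.14, 10.29, 10.05 and 9.68 in the unbound fractions. The groups did not overlap, and Kcns2 fell by 2.70 ± 0.43 (6.52-fold, limma adjusted p = 0.000401). Kcnf1 fell by 1.58 (2.99-fold). Kcnv1 lay under the floor on every immunoprecipitate array and was at least 1.23-fold lower. The 3 Kcng genes were not tested. Kcnh1, of the ether-a-go-go family, reached the floor on 2 of 4 immunoprecipitate arrays in its brighter probe set, which was at least 1.73-fold lower and was not called (limma adjusted p = 0.0111). Its dimmer probe set lay under the floor on all 4 and was called lower with a bound of at least 1.23-fold. Kcnh2, which encodes the cardiac ERG channel, differed by -0.63 (limma adjusted p = 0.0821).

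**Figure D3:**
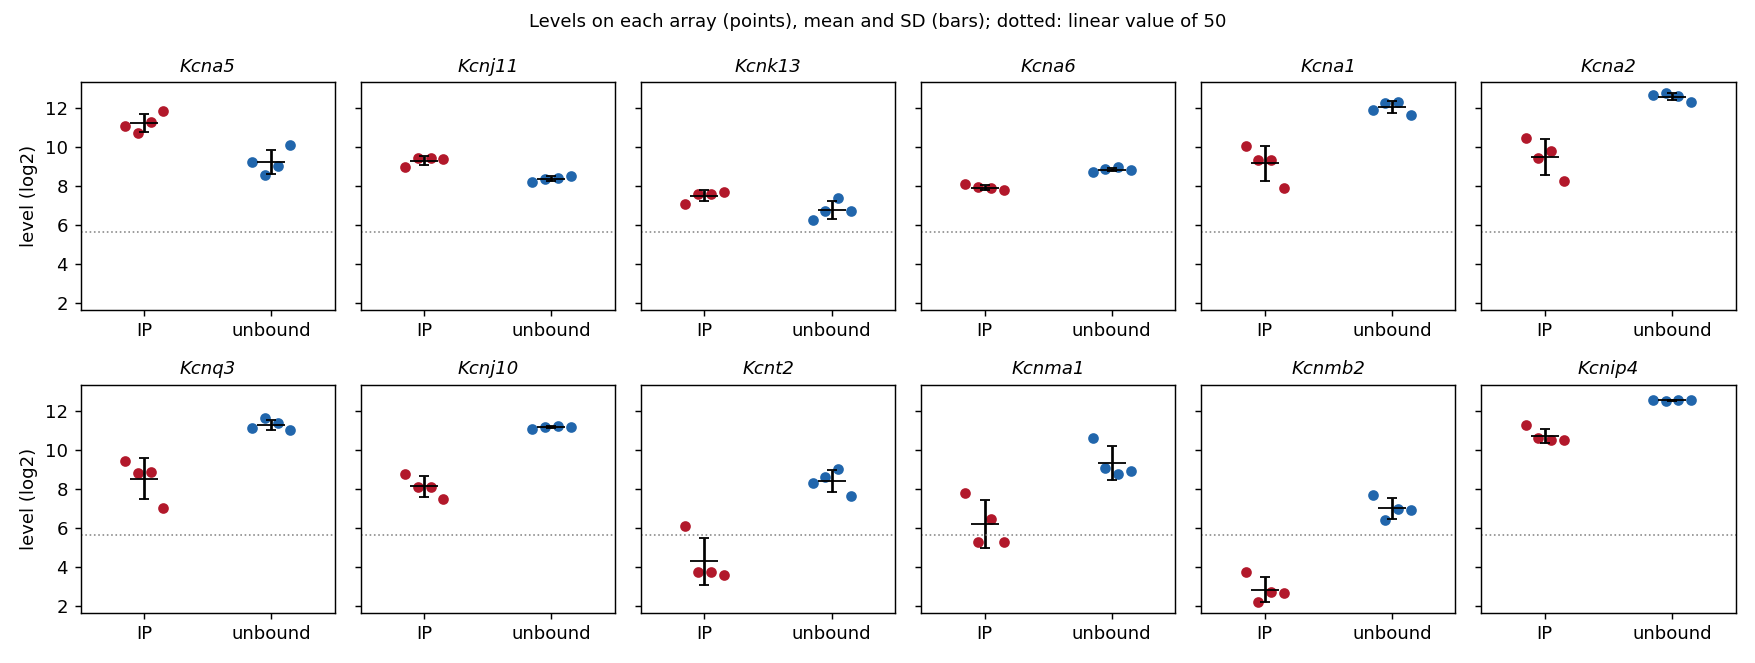
Levels on each array on the log2 scale for 12 channel genes, with 4 immunoprecipitates (IP) and 4 unbound fractions as points and the mean and SD as bars. The dotted line is the linear value of 50, and the Kcna5 immunoprecipitates at 10.73 to 11.85 lie above its unbound fractions at 8.59 to 10.10.

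Of the Kcnma, Kcnn, Kcnt and Kcnu genes, all but Kcnu1 calcium- or sodium-activated channels, 5 of 8 were tested and 4 fell, with a median of -1.70. Kcnma1 encodes the pore of the BK channel, which opens on calcium and depolarisation together. It measured 7.83, 5.28, 6.48 and 5.28 in the immunoprecipitates and 10.63, 9.07, 8.79 and 8.92 in the unbound fractions. Immunoprecipitates 2 and 4 lay under the floor, preparation 1 was the highest in both fractions, and no values overlapped. Kcnma1 was at least 7.77-fold lower (limma adjusted p = 0.0013), and its other 2 probe sets were at least 3.86-fold and 5.99-fold lower.

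Kcnt2 encodes Slick, a sodium-activated channel. It measured 6.12, 3.73, 3.73 and 3.62 in the immunoprecipitates and 8.34, 8.62, 9.06 and 7.66 in the unbound fractions. Immunoprecipitate 1 alone reached the floor, and Kcnt2 was at least 6.35-fold lower (limma adjusted p = 0.000152). Its relative Kcnt1, which encodes Slack, was at least 2.86-fold lower. Kcnn2, an SK channel of the afterhyperpolarisation, fell by 1.23 (2.34-fold, limma adjusted p = 0.0198). Without immunoprecipitate 4 its difference was -0.82, under 2-fold, and without unbound fraction 1 its adjusted p in limma was 0.0542. Kcnu1, known from sperm, differed by -0.30 with overlapping groups.

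Among the inward rectifiers, 7 of 15 genes were tested, of which 3 fell and 4 were not called, with a median of -1.73. The share that fell lay near the 44.2% of all tested genes. Kcnj10 encodes Kir4.1, the channel with which glia take up potassium, and Kcnj16 encodes Kir5.1, with which it assembles. Kcnj10 measured 8.80, 8.12, 8.13 and 7.52 in the immunoprecipitates and 11.11, 11.18, 11.23 and 11.17 in the unbound fractions. The unbound values lay within a narrow range far above all immunoprecipitates, and Kcnj10 fell by 3.03 ± 0.27 (8.18-fold, limma adjusted p = 1.35e-05). Kcnj16 measured 4.48, 3.22, 3.24 and 3.73 in the immunoprecipitates and 6.92, 6.38, 7.00 and 7.08 in the unbound fractions. It lay under the floor on every immunoprecipitate array and was at least 2.32-fold lower (limma adjusted p = 2.92e-05). Across immunoprecipitates 1 to 4 the astrocyte list averaged 8.60, 8.13, 7.72 and 7.13. Kcnj10 was likewise highest in replicate 1 and lowest in replicate 4, and what part astrocyte RNA had in its value was not tested.

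Kcnj3 and Kcnj9 encode subunits of the G-protein-gated channels through which inhibitory receptors act. Kcnj3 measured 8.67, 8.66, 8.38 and 6.89 in the immunoprecipitates and 10.41, 11.00, 11.02 and 9.20 in the unbound fractions. Replicate 4 was the lowest in both fractions, no values overlapped, and Kcnj3 fell by 2.26 (4.78-fold, limma adjusted p = 0.00277). Kcnj9 measured 9.06, 8.85, 8.96 and 6.66 in the immunoprecipitates and 10.65, 10.27, 10.73 and 7.63 in the unbound fractions. Replicate 4 was again low in both fractions, so the groups overlapped although each immunoprecipitate lay below its own unbound fraction. Its difference of -1.44 was not called (limma adjusted p = 0.117), and with the preparation as a block it was called lower (limma adjusted p = 0.000337). Without both arrays of replicate 4 its difference was -1.59 (limma adjusted p = 0.000839). A second probe set of Kcnj9 fell by 1.23. Kcnj6, another member of this group, stayed under 50 on all arrays.

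Kcnj11 encodes Kir6.2, the pore of the ATP-sensitive channel that ties firing to the energy state of the cell. It measured 8.98, 9.47, 9.43 and 9.40 in the immunoprecipitates and 8.22, 8.38, 8.44 and 8.53 in the unbound fractions. All immunoprecipitates lay above all unbound fractions, and the difference of 0.93 ± 0.21 (1.90-fold, limma adjusted p = 0.00341) missed the 2-fold threshold. On the median-centred scale Kcnj11 was called higher at 1.74, and after the shift on poly-A controls its difference was -1.04. Abcc8, which encodes the sulphonylurea receptor of the same channel, measured 7.16, 8.30, 8.05 and 7.53 in the immunoprecipitates and 7.03, 8.22, 7.01 and 6.54 in the unbound fractions. Its groups overlapped and its difference of 0.56 was not called (limma adjusted p = 0.237).

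Kcnj5 encodes another G-protein-gated subunit. It measured 6.27, 6.27, 6.27 and 6.26 in the immunoprecipitates and 5.63, 5.50, 6.40 and 5.80 in the unbound fractions. Its immunoprecipitate values hardly varied, as was so for 127 tested probe sets with an SD under 0.01 in that group, and the difference of 0.44 was not called (limma adjusted p = 0.148).

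Kcnj13 encodes Kir7.1, known from the epithelium of the choroid plexus. It measured 5.13, 6.65, 6.93 and 3.74 in the immunoprecipitates and 7.67, 9.37, 8.35 and 4.00 in the unbound fractions. Both fractions of replicate 4 were low, the groups overlapped, and the difference of -1.73 was not called (limma adjusted p = 0.188). With the preparation as a block it was called lower (limma adjusted p = 0.00519), and without both arrays of replicate 4 the difference was -2.23 (limma adjusted p = 0.013). Kcne2, an auxiliary subunit of the same epithelium that was not tested, measured 6.23, 7.73, 7.43 and 3.69 in the unbound fractions. Ttr, the transthyretin gene and a marker of the choroid plexus, measured 15.47, 15.85, 15.87 and 5.42 there and 14.99, 15.45, 15.35 and 10.19 in the immunoprecipitates. All 3 genes were thus lowest in replicate 4 in the unbound fractions, and what part choroid plexus tissue had in the values of Kcnj13 was not tested.

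**Figure D4:**
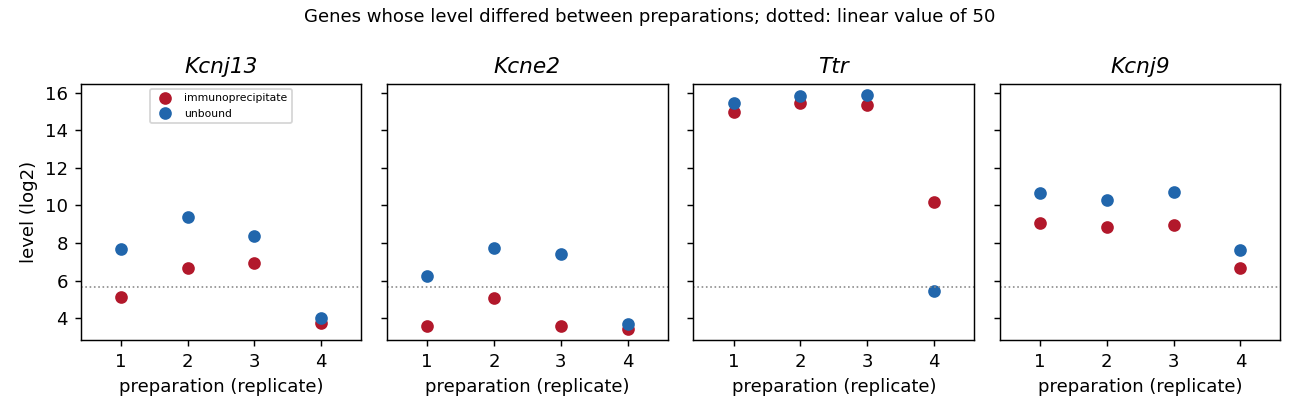
Levels of Kcnj13, Kcne2, Ttr and Kcnj9 on the log2 scale against the replicate number of the preparation, with the immunoprecipitate and the unbound fraction as points and the linear value of 50 as a dotted line. In replicate 4 the unbound fractions stood at 4.00, 3.69, 5.42 and 7.63, the lowest of the 4 for each gene.

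Of the two-pore channels, 4 of 12 genes were tested, of which 2 fell and 2 were not called, with a median of -0.83. Share and median lay near the 44.2% and -0.85 of all tested genes. Kcnk1, which encodes TWIK-1, fell by 1.65 (3.14-fold, limma adjusted p = 0.000278) and Kcnk3, which encodes the acid-sensitive TASK-1, by 1.27 (2.40-fold, limma adjusted p = 0.00274). Both lost the call after centring on the median. Kcnk2, which encodes the stretch- and lipid-gated TREK-1, differed by -0.39 with overlapping groups. Kcnk13 encodes THIK-1, known from microglia. It measured 7.11, 7.63, 7.63 and 7.70 in the immunoprecipitates and 6.29, 6.75, 7.40 and 6.74 in the unbound fractions. It was higher in all 4 preparations, but the groups overlapped and the difference of 0.72 was not called (limma adjusted p = 0.0503). The microglial list, by contrast, averaged 5.03 to 6.62 in the immunoprecipitates and 8.18 to 8.74 in the unbound fractions.

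Of the auxiliary subunits, 9 of 15 genes were tested, of which 6 fell and 3 were not called, with a median of -2.41. Kcnmb2, a beta subunit that inactivates BK channels, measured 3.75, 2.23, 2.70 and 2.68 in the immunoprecipitates and 7.71, 6.42, 7.01 and 6.94 in the unbound fractions. It lay under the floor on every immunoprecipitate array and was at least 2.62-fold lower (limma adjusted p = 1.4e-05). Kcnmb4, the beta subunit most abundant in brain, differed by -0.90 (1.86-fold), under the fold threshold.

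Kcnab1, Kcnab2 and Kcnab3 encode cytoplasmic beta subunits that bind the Kcna family, and all 3 fell. Kcnab1 measured 9.62, 8.37, 8.51 and 6.61 in the immunoprecipitates and 10.90, 11.08, 10.80 and 10.32 in the unbound fractions. Immunoprecipitate 4 was the lowest, no values overlapped, and Kcnab1 fell by 2.50 ± 0.53 (5.65-fold, limma adjusted p = 0.00209). Kcnab2 fell by 2.41 (5.30-fold), and Kcnab3, under the floor on every immunoprecipitate array, was at least 2.00-fold lower.

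The Kcnip genes encode calcium-binding partners of the Kcnd subunits. Kcnip3, also known as the transcriptional repressor DREAM, measured 4.94, 5.93, 5.45 and 5.40 in the immunoprecipitates and 7.88, 7.87, 8.12 and 7.96 in the unbound fractions. Immunoprecipitate 2 alone reached the floor, and Kcnip3 was at least 4.76-fold lower (limma adjusted p = 3.25e-05). Kcnip4 stood at 10.51 to 11.29 in the immunoprecipitates and 12.54 to 12.60 in the unbound fractions, and fell by 1.84 ± 0.20 (3.58-fold, limma adjusted p = 4.26e-05). A second probe set of Kcnip4 fell by 1.53 and the other differed by -0.39 and was not called. Kcnip1 differed by -0.36 and Kcnip2 by -0.05, both with overlapping groups and with the sign turned after centring on the median. All 5 Kcne genes remained untested.

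The 41 genes that were not tested include 3 non-coding transcripts, which are not channel subunits. One of these, the imprinted antisense transcript Kcnq1ot1, lay under 50 in all of its 6 probe sets. More than 1 tested probe set was present for 16 genes, of which 11 gave a single call and 0 gave calls in opposite directions. The other 5 were Kcna6, Kcnc1, Kcnh1, Kcnip4 and Kcnj9.

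Genes that work with the channels were taken as a list of 33 partners, of which 24 were tested. 12 fell (50%, against 44.2% of all tested genes) and none rose (against 4.74%), with a median of -1.07 against -0.85 over all genes. The share lower and the median thus lay near those of all genes. At an unadjusted p under 0.05 in limma 1 partner lay higher, and after centring on the median 3 were called higher. Slc12a2, the chloride importer NKCC1, measured 10.46, 9.67, 9.40 and 9.36 in the immunoprecipitates and 12.48, 12.08, 11.87 and 12.40 in the unbound fractions. Its groups did not overlap, and Slc12a2 fell by 2.48 (5.60-fold, limma adjusted p = 4.5e-05). Dpp10, a membrane partner of the Kcnd subunits, measured 9.54, 9.32, 8.97 and 8.47 in the immunoprecipitates and 11.37, 11.60, 11.08 and 11.39 in the unbound fractions. It fell by 2.28 (4.87-fold, limma adjusted p = 5.34e-05), whereas the related Dpp6 differed by 0.16 with overlapping groups.

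Ank3, the ankyrin that holds Kcnq channels at the axon initial segment, fell by 2.42 (5.36-fold, limma adjusted p = 7.85e-05). Its relative Ank2 fell by 2.12 (4.34-fold, limma adjusted p = 0.00764), with overlapping groups. Cntn2, the axonal protein that gathers Kcna channels beside the nodes, was at least 5.97-fold lower (limma adjusted p = 3.55e-05). Its partner Cntnap2 differed by 0.51 and was not called (limma adjusted p = 0.0607). Lrrc38, a gamma subunit of BK channels, lay under the floor on every immunoprecipitate array and was at least 1.11-fold lower (limma adjusted p = 3.95e-06).

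Several measures moved with the level of the channel genes in the immunoprecipitates, and the list for hypocretin neurons moved the other way. Immunoprecipitate 1 was the highest of its group for 23 of the 43 channel genes and immunoprecipitate 4 the lowest for 24. The mean over the 43 genes was 7.95, 7.69, 7.77 and 7.26 in immunoprecipitates 1 to 4 and 9.01 to 9.48 in the unbound fractions. The thalamic neuron list averaged 9.22, 8.80, 8.76 and 7.39 in the same immunoprecipitates and the oligodendrocyte list 10.96, 10.79, 10.63 and 9.40. The list for hypocretin neurons averaged 12.55, 12.83, 12.90 and 13.05 there. In unbound fractions 1 to 4 the thalamic neuron list averaged 11.21, 10.83, 10.81 and 10.40, and the channel genes 9.21, 9.36, 9.48 and 9.01. The order was not particular to these lists. The astrocyte, oligodendrocyte precursor, microglial, GABAergic and melanin-concentrating hormone neuron lists were also highest in immunoprecipitate 1 and lowest in immunoprecipitate 4. The endothelial and mural list and the pan-neuronal list were lowest in immunoprecipitate 4 but highest in immunoprecipitate 2. What part RNA of any of these cells had in the falls was not tested. Without both arrays of replicate 1, 29 channel genes were lower and 1 higher, and without both arrays of replicate 4, 28 were lower and 1 higher.

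Channel genes are long in the RefSeq annotation, with a median length of 54483 bases against 25699 over all tested genes, and 18 of the 43 belong to the longest 20% of tested genes. In that class 12 of the 18 channel genes fell, with a median of -2.01, against 66.5% of all genes and a median of -1.54. In the next longest class 7 of 8 channel genes fell, with a median of -1.68, against 55.1% of all genes and a median of -1.15. In the middle class of length 3 of 8 channel genes fell, with a median of -0.78, against 42.2% of all genes and a median of -0.81. In the second shortest class 2 of 4 channel genes fell, with a median of -2.11, against 33.2% of all genes and a median of -0.52. Among the shortest 20% of tested genes 3 of 5 channel genes fell and Kcna5 rose, against 23.6% of all genes lower. The medians there were -1.58 for the channel genes and -0.13 for all genes.

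The signal at the 3' end exceeded that at the 5' end of Actb by 3.14 to 4.11 in the immunoprecipitates and 3.01 to 3.80 in the unbound fractions. For Gapdh replicate 4 stood apart in both fractions, at 4.50 in its immunoprecipitate against 2.12 to 2.31 in the others and at 3.36 in its unbound fraction against 1.94 to 2.08. Immunoprecipitate 4, the lowest of its group for 24 of the 43 channel genes, thus also had the largest excess for both Actb and Gapdh. For Actb its 4.11 lay close to the 4.05 of immunoprecipitate 1, the highest of its group for 23 of the 43 channel genes. The part of RNA quality in those levels was not tested. The excess was higher in the immunoprecipitate in 3 of 4 preparations for Actb and in 4 of 4 for Gapdh. A two-sided exact permutation test over the pairs gave p = 0.375 and p = 0.125, the latter being the smallest p that 4 pairs allow. Without the pairing the exact p was 0.314 and 0.457 (n = 4 per group). Between 33.6% and 34.8% of probe sets reached 50 on the immunoprecipitate arrays and 40.5% to 40.9% on the unbound ones.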

How the data were processed

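The deposited log2 values, 1 per probe set and array, were made with GCRMA, per the submitters' processing notes. GCRMA corrects the background of Affymetrix arrays and normalizes them, here within each fraction, per the design text. No version is stated. Probe sets were named from the platform annotation (34945 with 1 symbol, 932 with several, 9160 not listed), and genes were matched to RefSeq by gene ID.

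1 constant per group equalised the 18 biotinylated controls, which differed by 0.02 as deposited. Probe sets at 50 or more on at least 4 arrays entered a fit in limma 3.58.1 (R 4.3.3, lmFit, eBayes with a mean-variance trend, no block), with Benjamini-Hochberg adjustment over 17865 probe sets. A call needed an adjusted p under 0.05 and 2-fold. The labels call the immunoprecipitates biological replicates, each of pooled mice. The number of arrays limits the precision.

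Replicate numbers join both fractions of a preparation per the labels. Between same-numbered arrays the deviations from group means had correlations of 0.46, 0.32, 0.28 and 0.58 across genes. A fit with the replicate block was an alternative, beside other scalings, filters, thresholds, the mean of probe sets and each array left out. Leaving out both arrays of replicate 1 or 4 was chosen after seeing the data.

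The channel genes, partner and marker lists, and the tests were chosen with earlier results of these data known. The text names each gene called higher, up to 25 called lower with the largest change, the brightest tested member of any other subfamily, genes whose probe sets disagree, and up to 6 called partner genes. Per-array values are given for the first and for up to 12 lower genes without overlap. Kcnj5, Kcnj11, Kcnj13, Kcnk2, Kcnk13, Kcnc2, Kcnc4, Kcnmb4, Kcnip1, Kcnip2, Kcne2, Ttr, Abcc8, Cntnap2 and Dpp6, and the array values of Kcnc1, Kcnj3 and Kcnj9, were chosen after their values were seen. The fit was tested on simulated data. Plots used matplotlib 3.10.9 in Python 3.11.15.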

Additional observations from a re-analysis of the deposited data

Results flagged for a closer look

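The values of the 43 tested genes in each fraction gave 86 groups of 4 arrays, and in 12 of them 1 array lay apart from the others by more than Dixon's limit for 4 values. Chance alone gives about 1 in 20 groups. Immunoprecipitate 1 lay apart for 5 genes. Kcnip4 was high at 11.29 against 10.51 to 10.63 in the others, and Kcnt2 at 6.12 against 3.62 to 3.73. Kcnip2 was low at 9.13 against 9.80 to 9.90, Kcnj11 at 8.98 against 9.40 to 9.47, and Kcnk13 at 7.11 against 7.63 to 7.70.

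Replicate 4 lay apart for 3 genes. Kcnj3 was low at 6.89 in immunoprecipitate 4, against 8.38 to 8.67. Kcnj9 was low in both fractions, at 6.66 against 8.85 to 9.06 in the immunoprecipitates and at 7.63 against 10.27 to 10.73 in the unbound fractions. Kcnk3 was high at 7.22 in immunoprecipitate 4, against 6.58 to 6.63.

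The remaining 3 concern other arrays. Kcnd1 stood at 4.23 in immunoprecipitate 2 against 3.47 to 3.52, and Kcnv1 at 3.83 in immunoprecipitate 3 against 3.32 to 3.33, all under the floor of 50. Kcnma1 stood at 10.63 in unbound fraction 1, against 8.79 to 9.07. What set these arrays apart was not tested.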

How the results depend on the processing

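The scale between the fractions had the widest effect, since the fractions were normalized apart. Channel genes called higher numbered 1 as reported, 5 after median centring (Kcna5, Kcnj11, Kcnk13, Kcnc4 and Kcnj5), 5 after quantile normalization, 0 after a shift on 24 poly-A controls, 2 with no fold threshold, 0 at 4-fold, and 1 to 2 with single arrays or both arrays of replicate 1 or 4 left out (2 without immunoprecipitate 1, where Kcnj11 reached 1.04). Channel genes called lower numbered 27 as reported, 42 on the poly-A scale, and 26 to 29 with arrays left out. The poly-A controls differed by 1.99 between the fractions. Their mean ranged from 7.17 to 10.55 over the unbound arrays, against 10.03 to 11.22 over the immunoprecipitates. The mean of the biotinylated controls also varied within the fractions. It ranged from 10.43 to 11.43 over the unbound arrays and from 10.60 to 11.32 over the immunoprecipitates. Partner genes called higher rose from 0 to 3 after median centring and to 3 after quantile normalization, and stayed at 0 with arrays left out. Partner genes called lower numbered 12, with 24 on the poly-A scale, 7 at 4-fold and 12 to 13 with arrays left out.

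Signs turned after median centring for Kcnh2 (0.18), Kcnip1 (0.45), Kcnip2 (0.76), Kcnk2 (0.42) and Kcnu1 (0.51). They turned after quantile normalization for Kcna6 (0.028), Kcnh1 (0.46), Kcnh2 (0.45), Kcnip1 (0.36), Kcnip2 (0.72), Kcnk2 (0.35) and Kcnu1 (0.98), and on the poly-A scale for Kcnc4 (-1.36), Kcnj11 (-1.04), Kcnj5 (-1.53) and Kcnk13 (-1.25). Kcnip2 ranged from -0.37 to 0.16 with single arrays left out, and turned without immunoprecipitate 1 (0.13), unbound fraction 2 (0.08) or unbound fraction 3 (0.16). Of 852 values for a gene under an alternative, 774 kept sign and call, 40 gained a call, 19 lost one and 19 turned. The replicate block called 29 channel genes lower, adding Kcnj9 and Kcnj13, and changed no other call. Signal limits 9 of the 27 genes called lower, whose folds are bounds, and for Kcnd1 (1.46-fold) and Kcnv1 (1.23-fold) the bound does not reach the 2-fold threshold.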
